A study of Mus musculus with 10 samples.

Results

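The genes described here are 10 core and output genes of the circadian clock (Arntl, Clock, Npas2, Per1, Per2, Per3, Nr1d1, Nr1d2, Dbp and Nfil3), out of 18193 genes measured. They were chosen by name, and every probe set annotated to exactly 1 of them was taken, which gave 24 of 34945 single-gene probe sets. Gastrocnemius, a calf muscle, came from 5 Skn-1 deficient and 5 wild-type male mice aged 12 to 16 weeks, and each mouse gave 1 Affymetrix Mouse Genome 430 2.0 array. The gene called Skn-1 in the labels is Pou2f3, which encodes a transcription factor known for its need in taste and tuft cells. Both genotypes carry the label of a mixed 129 x C57BL/6J background, and the deficient line had been crossed to C57BL/6J for over 10 generations. All mice ate chow and were then fasted for 18 h before dissection, so no fed muscle was compared. The time of day of dissection is not given in the sources used here, and neither is the tissue in which the deficiency acts. The labels call the arrays biological replicates, with nothing on litters.

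The mammalian clock is a loop of transcription. Arntl (Bmal1) pairs with Clock or Npas2 and activates genes with E-boxes, among them the Per genes, Nr1d1, Nr1d2 and Dbp. The Per proteins then repress this pair, Nr1d1 and Nr1d2 (the REV-ERB proteins) repress Arntl and Nfil3, and Dbp and Nfil3 compete at D-boxes as activator and repressor. In muscle the clock is known to time glucose uptake and fuel choice, and fasting, glucocorticoids and cAMP act on some of its genes, Per1 above all. Because the mRNA of Nfil3 is known to run in the phase of Arntl, it is counted with the activator arm here, although its protein is a repressor.

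Promoter stretches of 4 of these genes hold such elements and are shown for that reason. The sequences are RefSeq's, on the GRCm38.p6 assembly, read 5′ to 3′ on the strand of the gene, with the element in capitals. Per3 is shown for chr4:151044666-151044915 (minus strand), Per1 for chr11:69098699-69098948 (plus strand) and Nfil3 for chr13:52981040-52981289 (minus strand), each the 250 bases before an annotated start. Arntl is shown for 30 bases after a start, chr7:113207529-113207558 (plus strand).
Per3: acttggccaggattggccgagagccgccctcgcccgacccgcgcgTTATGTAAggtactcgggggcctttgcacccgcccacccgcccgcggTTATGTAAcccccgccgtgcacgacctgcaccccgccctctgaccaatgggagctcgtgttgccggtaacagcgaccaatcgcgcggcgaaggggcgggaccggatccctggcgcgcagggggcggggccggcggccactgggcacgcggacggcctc
Per1: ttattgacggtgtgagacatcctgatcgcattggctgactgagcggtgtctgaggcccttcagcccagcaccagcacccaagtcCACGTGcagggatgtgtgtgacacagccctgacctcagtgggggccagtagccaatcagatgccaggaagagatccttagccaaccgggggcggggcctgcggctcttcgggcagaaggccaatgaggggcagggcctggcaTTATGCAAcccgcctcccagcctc
Nfil3: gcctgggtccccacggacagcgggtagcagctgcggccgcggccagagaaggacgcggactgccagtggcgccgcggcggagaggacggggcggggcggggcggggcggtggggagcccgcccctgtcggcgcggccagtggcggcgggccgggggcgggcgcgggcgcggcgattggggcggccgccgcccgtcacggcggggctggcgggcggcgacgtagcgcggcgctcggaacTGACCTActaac
Arntl: gaaggcagaaagTAGGTCAgggacggaggt
The capitals mark the D-box letters TTATGTAA at −205 and −158 in Per3, the E-box CACGTG at −166 and the D-box letters TTATGCAA at −24 in Per1, and the element TAGGTCA, bound by ROR and REV-ERB proteins, in Nfil3 and Arntl. In Nfil3 this element lies on the opposite strand at −12, so that its reverse complement is printed, and in Arntl it lies at 31 bases past the start.

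Each element was searched on both strands, in windows of 250 bases before and 50 bases after the start, over 32851 windows. Of the 10 clock genes, 9 had a window, 13 windows in all, and Per2 had none. CACGTG stood in 7.15% of all windows, TTATGTAA in 0.938%, TTATGCAA in 0.743% and TAGGTCA in 2.61%. TGGGTCA, a variant of the last, stood in 3.98% of all windows and the cAMP element TGACGTCA in 1.79%, and neither stood in a window of these genes. Of the 13 windows of clock genes, CACGTG stood in 1 (Per1), TTATGTAA in 1 (Per3), TTATGCAA in 1 (Per1) and TAGGTCA in 2 (Arntl and Nfil3). The windows of Nr1d1, Nr1d2 and Dbp held none of these elements. A match is a run of letters and not a measured binding site.

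The deposited values ran from 4.93 to 13.96 and are read as log2, which no source states, so every fold rests on that reading. Array medians lay between 6.23 and 6.24. Across the 10 arrays, 86.2% of all 45037 probe sets barely moved (SD no higher than 0.01, median 0.000189); these are called low-variation, and the size of their differences cannot be read. The other 6209, called ordinary, had a median SD of 0.168. Pou2f3 was low-variation, at 6.47 in both genotypes, so its probe set could not check the labels. The mean of 6 ordinary skeletal muscle markers of 8 lay between 12.99 and 13.14 on every array. Epidermis genes (6 of 6 measured) averaged 7.69 and 8.13 in Skn-1 deficient arrays 1 and 4, and 6.75 and 6.90 in wild-type arrays 1 and 3, while the other 6 arrays lay between 6.23 and 6.28. In wild-type array 1 only some of these genes were raised. Krt5 read 7.68 and Krt14 6.98 there, but Krt1 read 5.87 and Lor 6.46, for Lor the lowest of all 10 arrays. Lymphocyte genes averaged 7.67 in Skn-1 deficient array 5 and 7.77 in wild-type array 3, against 5.50 to 5.63 elsewhere (3 ordinary genes of 7 measured). Adipocyte genes ranged from 8.85 in wild-type array 4 to 10.14 in wild-type array 3. Macrophage genes ranged from 7.61 in wild-type array 1 to 8.43 in wild-type array 3. No arrays were left out for these. Differences that turned their sign or moved by over 1.5 times without the 4 arrays with epidermis genes are given without them too.

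Most probe sets of the clock genes belonged to the low-variation kind. Of the 24, 6 (25%) were ordinary, against 15.6% of all single-gene probe sets, and they covered Nfil3, Per1, Per3, Nr1d1, Nr1d2 and Dbp with 1 probe set each. Arntl, Clock, Npas2 and Per2 had none. The core activators thus had values on these arrays but no readable variation between mice. Those of Npas2 lay near the array medians (6.23 to 6.24), so they do not show that it was expressed. Arntl read 8.56 and 6.53 in its 2 probe sets, Clock 7.75, 7.41, 7.34 and 6.07 in its 4, Npas2 6.32 and 5.96 in its 2, and Per2 6.50, 6.14 and 5.85 in its 3. The second Per2 probe set had the widest spread of the low-variation ones (SD 0.00557). Per3 had 5 further probe sets, and Nr1d2 and Dbp 1 each, that were low-variation too, so probe sets of 1 gene differed in whether variation could be read.

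**Figure D1:**
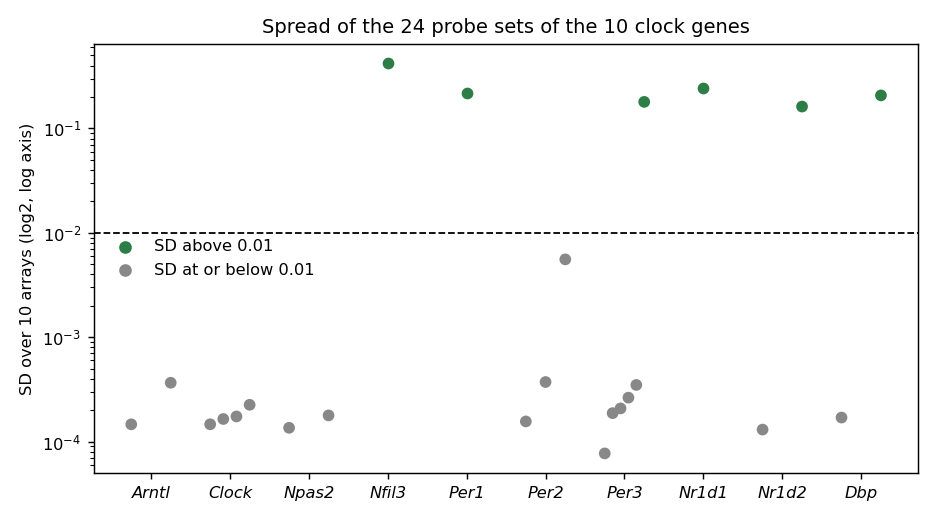
SD over the 10 arrays (log2 values, log axis) of each of the 24 probe sets, by clock gene; the dashed line is the limit of 0.01. A single probe set each of Nfil3, Per1, Per3, Nr1d1, Nr1d2 and Dbp lies above it, and the highest of the others is Per2 at 0.00557.

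No clock gene passed the test between genotypes. With limma and Benjamini-Hochberg adjustment at 0.05, 0 of the 24 probe sets were called, where 0.191% of all 45037 were (86, of which those higher in Skn-1 deficient muscle made up 0.155% of the 45037). Over genes, each taken by its brightest probe set, 0 of the 10 were called, where 0.0275% of all 18193 were (5). For Arntl, Clock, Npas2, Per2 and also Per3 that brightest probe set was a low-variation one, whose difference has no readable size. Within the fit over all probe sets 0.966% of the 6209 ordinary probe sets were called. At an unadjusted p under 0.05 limma had 2 of the 24 clock probe sets, against 6.62% of all, and 0 of the 10 clock genes. Those 2 were low-variation ones, of Clock (adjusted p = 0.547, limma) and of Arntl (adjusted p = 0.606, limma), and their sizes cannot be read. None of the 6 ordinary clock probe sets had an unadjusted p under 0.05, where 9.92% of ordinary probe sets did. In bulk muscle, fewer cells of a type and less RNA per cell cannot be told apart.

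Nfil3 was the only gene of the activator arm with an ordinary probe set and had the largest difference of the 6. It read 8.24, 9.35, 8.51, 8.60 and 8.75 in Skn-1 deficient arrays 1 to 5, against 7.89, 8.55, 7.95, 8.26 and 8.41 in wild-type arrays 1 to 5. The groups overlapped, although each Skn-1 deficient array lay above the wild-type mean, and Skn-1 deficient array 2 stood highest of all 10. The means were 8.69 ± 0.410 in Skn-1 deficient and 8.21 ± 0.287 in wild-type muscle (SD, n = 5 each). The difference was 0.48 on the log2 scale, 1.39-fold (SE 0.22, 95% interval −0.02 to 0.98), and did not pass (adjusted p = 0.775, limma). Without Skn-1 deficient array 2 it was 0.32, which is the lowest value under any alternative run.

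Per1 encodes a repressor of the Arntl and Clock pair that also answers quickly to glucocorticoids and cAMP. It read 7.90, 8.41, 7.94, 8.09 and 7.96 in Skn-1 deficient arrays 1 to 5, against 7.90, 8.51, 7.97, 8.20 and 8.01 in wild-type arrays 1 to 5. Replicate 2 was the highest of each genotype, and the other 8 arrays lay between 7.90 and 8.20. The means were 8.06 ± 0.210 in Skn-1 deficient and 8.12 ± 0.245 in wild-type muscle (SD, n = 5 each), a difference of −0.06 (95% interval −0.38 to 0.27, adjusted p = 0.996, limma). Without the 4 arrays with epidermis genes the difference was −0.13, and without wild-type array 2 it was 0.043, of the other sign.

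Per3 encodes a further Per protein, with a weaker known part in the loop. Its ordinary probe set read 6.66, 6.23, 6.16, 6.59 and 6.37 in Skn-1 deficient arrays 1 to 5, against 6.51, 6.41, 6.25, 6.32 and 6.13 in wild-type arrays 1 to 5. The groups overlapped over most of their range. It was a dim probe set, with only 6.41% of ordinary single-gene probe sets below its mean. For Nr1d1 and Dbp, also rather dim, these shares were 17.5% and 18.2%. The means of Per3 were 6.40 ± 0.217 in Skn-1 deficient and 6.32 ± 0.146 in wild-type muscle (SD, n = 5 each), and the difference was 0.08 (95% interval −0.18 to 0.34, adjusted p = 0.978, limma). Without the 4 arrays with epidermis genes it was −0.030.

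The 2 REV-ERB genes encode nuclear receptors that bind haem and repress Arntl. Nr1d1 read 7.45, 6.99, 6.71, 7.29 and 7.19 in Skn-1 deficient arrays 1 to 5, against 7.23, 6.89, 6.88, 6.87 and 6.78 in wild-type arrays 1 to 5. The Skn-1 deficient arrays held both the highest and the lowest value, and among wild-type arrays only the first stood apart from the rest. The means were 7.13 ± 0.285 and 6.93 ± 0.174 (Skn-1 deficient and wild type, SD, n = 5 each), a difference of 0.20 (SE 0.15, 95% interval −0.13 to 0.53, adjusted p = 0.933, limma). It was 0.12 without the 4 arrays with epidermis genes, and also without Skn-1 deficient array 1 alone, and 0.30 without Skn-1 deficient array 3.

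Nr1d2 read 9.74, 9.65, 9.70, 10.02 and 9.90 in Skn-1 deficient arrays 1 to 5, against 9.72, 9.85, 9.51, 9.91 and 9.58 in wild-type arrays 1 to 5. Its values were the brightest of the 6 probe sets and the closest together, and the groups overlapped. The means were 9.80 ± 0.157 in Skn-1 deficient and 9.71 ± 0.171 in wild-type muscle (SD, n = 5 each), and the difference was 0.09 (95% interval −0.14 to 0.32, adjusted p = 0.969, limma). It was −0.028 without the 4 arrays with epidermis genes and 0.013 without the 2 with lymphocyte genes.

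Dbp encodes an activator at D-boxes and is a strongly rhythmic output of the clock. It read 7.22, 6.70, 7.18, 7.26 and 7.11 in Skn-1 deficient arrays 1 to 5, against 7.35, 6.97, 6.98, 6.94 and 6.81 in wild-type arrays 1 to 5. Skn-1 deficient array 2 was the lowest of all 10 and wild-type array 1 the highest, so the groups overlapped. The means were 7.09 ± 0.228 in Skn-1 deficient and 7.01 ± 0.200 in wild-type muscle (SD, n = 5 each), a difference of 0.08 (95% interval −0.22 to 0.39, adjusted p = 0.985, limma). Its probe set has the suffix s_at, which the platform gives to sets that can match several transcripts. It was 0.18 without Skn-1 deficient array 2 and 0.17 without wild-type array 1.

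**Figure D2:**
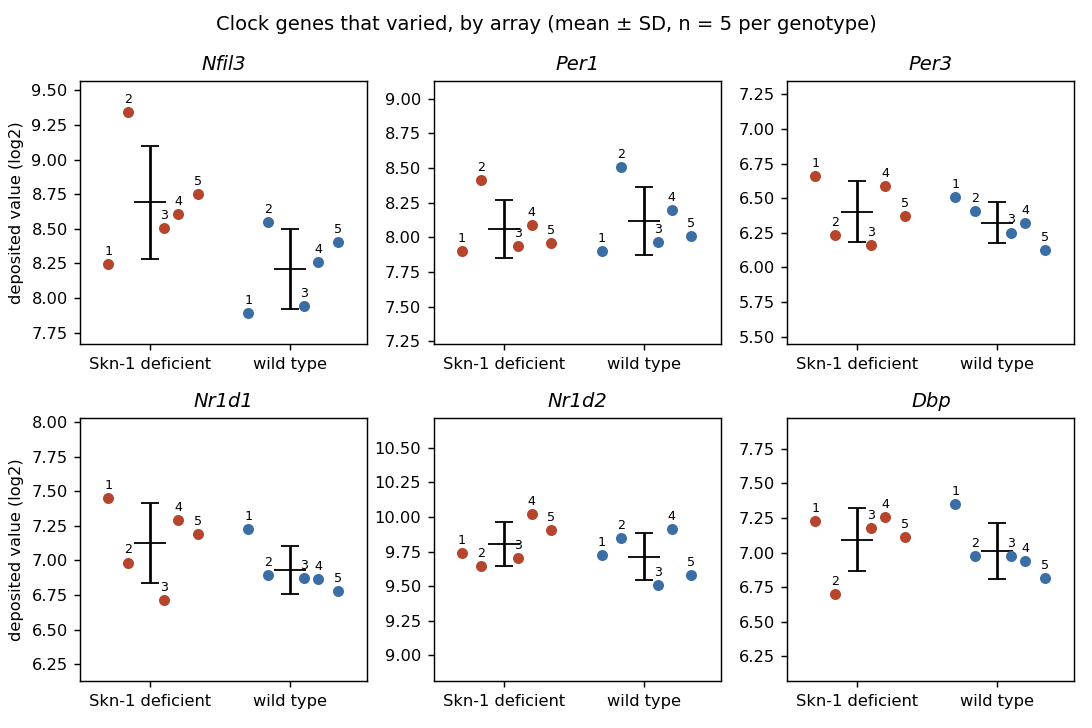
Deposited values (log2) of the 6 ordinary clock probe sets in Skn-1 deficient and wild-type muscle; points are arrays with their replicate number, and bars are the mean ± SD (n = 5 each). All panels span the same height of the log2 scale; the genotypes overlap in every panel, and Nfil3 shows the largest gap, 8.69 against 8.21.

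Of the 6 ordinary probe sets, 5 were higher in Skn-1 deficient muscle and Per1 was lower, with a median difference of 0.09. Without the 4 arrays with epidermis genes, Nfil3 (0.46), Nr1d1 (0.12) and Dbp (0.086) were higher. Per1 (−0.13), Per3 (−0.030) and Nr1d2 (−0.028) were lower in that comparison. Over all 6209 ordinary probe sets and all 10 arrays, 49.2% were higher and the median was −0.0021. None of the 6 separated the genotypes without overlap, which 3.96% of ordinary probe sets did (3.37% with the Skn-1 deficient arrays higher) and 1.60% of all probe sets. Between mice of 1 genotype, Nfil3 varied most, with a within-group SD of 0.354, above that of 90.5% of the 5446 ordinary single-gene probe sets. The highest array of Nfil3 stood 2.74-fold over the lowest. Nr1d1 (SD 0.236), Per1 (0.228), Dbp (0.215), Per3 (0.185) and Nr1d2 (0.164) followed, above 76.6%, 74.8%, 71.4%, 60.8% and 51.8% of those probe sets. Their highest arrays stood between 1.43-fold (Nr1d2) and 1.66-fold (Nr1d1) over their lowest.

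The phase pattern of each mouse was described by the activator arm minus the repressor and output arm, each gene taken as its deviation from its mean over all 10 arrays. Only Nfil3 could stand for the activator arm, since Arntl, Clock and Npas2 had no ordinary probe set. The other arm was made up of 5 genes, since Per2 had none either. The arm difference was −0.34, 0.96, 0.18, −0.04 and 0.25 in Skn-1 deficient arrays 1 to 5, against −0.64, 0.03, −0.36, −0.18 and 0.15 in wild-type arrays 1 to 5. The groups overlapped, and the highest (Skn-1 deficient array 2) and the lowest array (wild-type array 1) were also the extremes of Nfil3. The mean was 0.20 ± 0.482 in Skn-1 deficient and −0.20 ± 0.317 in wild-type muscle (SD, n = 5 each), and the gap of 0.40 was about the pooled SD between replicates (0.408). The repressor and output arm alone averaged 0.04 ± 0.131 in Skn-1 deficient and −0.04 ± 0.125 in wild-type muscle. That gap was not kept on the arrays without epidermis genes. There the arm read −0.06, −0.12 and 0.05 in Skn-1 deficient arrays 2, 3 and 5. In wild-type arrays 2, 4 and 5 it read 0.07, −0.01 and −0.20. Without Skn-1 deficient array 2 the gap in arm difference was 0.21. With each gene divided by its SD it was 0.76 in units of SD.

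Per3, Nr1d1 and Dbp shared their highest arrays. Skn-1 deficient arrays 1 and 4 and wild-type array 1 held ranks 1 to 3 in each of the 3 genes. These are 3 of the 4 arrays with epidermis genes, wild-type array 1 by some of those genes only. The fourth, wild-type array 3, ranked 7, 7 and 6 in Per3, Nr1d1 and Dbp, at 6.25, 6.88 and 6.98. The part of the epidermis genes in this order was not tested. Nfil3 was lowest in wild-type arrays 1 and 3. Per1 was highest in replicate 2 of both genotypes and lowest in replicate 1 of both.

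**Figure D3:**
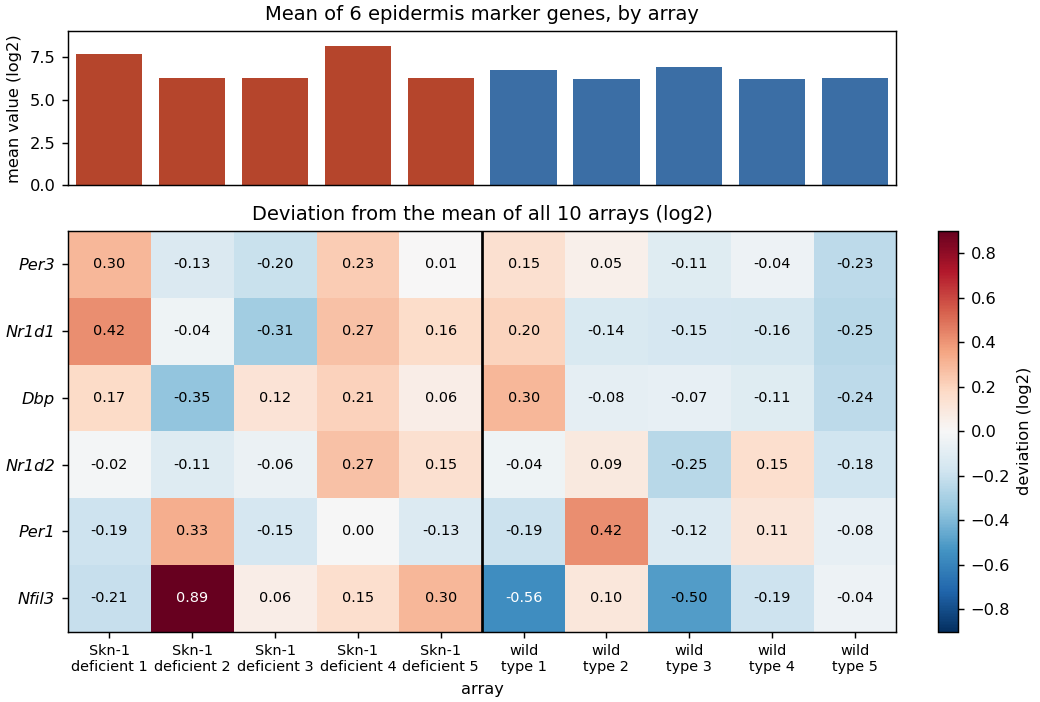
Lower panel, deviation of each clock gene from its mean over all 10 arrays (log2), printed in each cell, with Skn-1 deficient arrays left of the line and wild-type arrays right of it; upper panel, mean log2 value of 6 epidermis genes on the same arrays. Per3, Nr1d1 and Dbp are highest in Skn-1 deficient arrays 1 and 4 and wild-type array 1, and also positive, by less, in Skn-1 deficient array 5, and Nfil3 is at its highest in Skn-1 deficient array 2, where Dbp is at its lowest.

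Whether the genes moved together between mice was asked over the 10 arrays as deviations from the genotype mean, for 15 pairs, with two-sided permutation tests (100000 resamples) adjusted over the 15. Per3 and Nr1d1 moved together most closely (Pearson r = 0.92, adjusted permutation p = 0.00180; Spearman rho = 0.94, adjusted permutation p = 0.00345). Leaving out the 2 arrays farthest from the median of Nr1d1 (Skn-1 deficient arrays 1 and 3) gave r = 0.87, and the 6 arrays without epidermis genes gave r = 0.76. Per1 and Nfil3 moved together although they stand in opposite arms (r = 0.84, adjusted permutation p = 0.0163; rho = 0.87, adjusted permutation p = 0.0169). Without replicate 2 of both genotypes r was 0.57, and without the arrays with epidermis genes 0.80.

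Dbp and Nfil3, which compete at D-boxes, moved oppositely (r = −0.82, adjusted permutation p = 0.0163), but by rank the pair missed the threshold (rho = −0.78, adjusted permutation p = 0.0505). Without the 2 farthest arrays (wild-type array 1 and Skn-1 deficient array 2) r was −0.62, and without the arrays with epidermis genes −0.87. On the plain values, with the genotype means left in, Per3 and Nr1d1 kept r = 0.91 (adjusted permutation p = 0.00525; rho = 0.88, adjusted permutation p = 0.0259). On those values Per1 and Nfil3 had r = 0.58 (adjusted permutation p = 0.246) and Dbp and Nfil3 r = −0.51 (adjusted permutation p = 0.270), so these pairs rest on removing the genotype means.

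The other 12 pairs did not pass. Among Per3, Nr1d1, Nr1d2 and Dbp all 6 pairs had a positive r, between 0.33 (Nr1d1 with Nr1d2) and 0.92. Dbp had r = 0.67 with Per3 (adjusted permutation p = 0.122) and 0.57 with Nr1d1 (adjusted permutation p = 0.207), and over the 6 arrays without epidermis genes these were 0.24 and −0.11. Nr1d2 with Per3 went the other way, at 0.51 over all arrays and 0.89 over those 6. Per1 differed from these 4, with r = −0.61 with Dbp, −0.26 with Nr1d1, −0.12 with Per3 and 0.25 with Nr1d2. Arntl, whose low-variation probe set can be ranked but not sized, passed with none of the 6 varying genes, and its largest rank correlation was with Dbp (rho = −0.55, adjusted permutation p = 0.624).

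**Figure D4:**
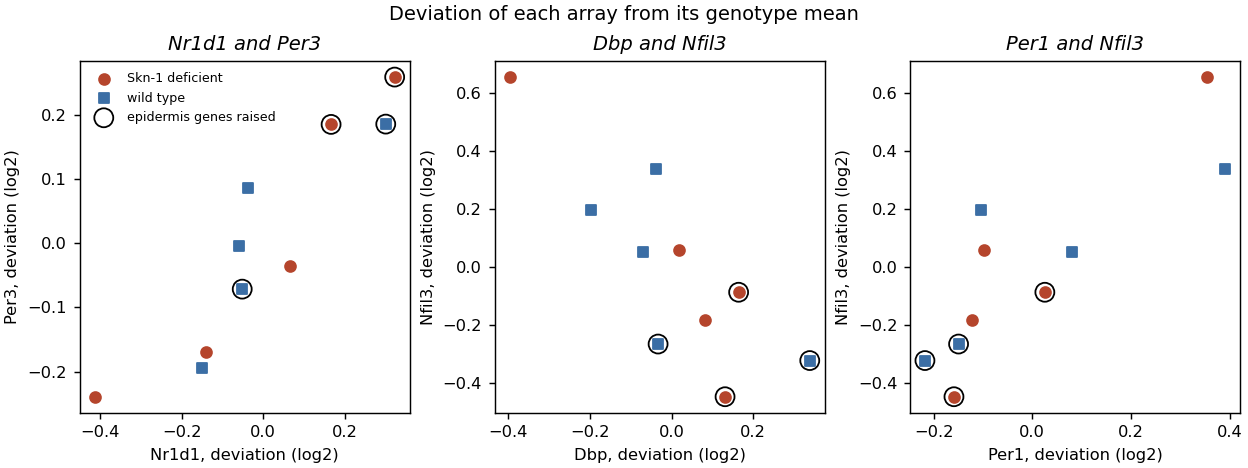
Deviation from the genotype mean (log2) of the 3 pairs that passed by Pearson's r, with Skn-1 deficient arrays as circles and wild-type arrays as squares; black rings mark the 4 arrays with epidermis genes. Per3 rises with Nr1d1 (r = 0.92), Nfil3 falls with Dbp (r = −0.82) and rises with Per1 (r = 0.84), the last leaning on replicate 2 of each genotype.

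Over the 3312 ordinary genes ranked by their correlation with the arm difference, the most alike were Tcim (r = 0.96), Coro2b (0.95), Sox17 (0.95), Nmb (0.94) and Ccdc71l (0.93). The most opposite were Inpp4b (−0.91), Plekhb1 (−0.88), Hoxa9 (−0.85), Ndufaf4 (−0.84) and Rcor3 (−0.82). Nfil3, the only gene of the activator arm, had an SD of 0.410 in Skn-1 deficient and 0.287 in wild-type arrays. The other arm had 0.131 and 0.125. The ranking thus mostly follows Nfil3 and cannot be read as likeness to a clock phase. These correlations describe the same 10 arrays that gave the arm difference, as deviations from the genotype mean. The genes were picked as the extremes.

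Of 24 other genes of the loop and its outputs, 22 were measured by a single-gene probe set and 11 had an ordinary one as their brightest. None was called over genes (limma, 0 with an unadjusted p under 0.05), and of the 11, 6 were higher and 5 lower, with a median difference of 0.01. Without the 4 arrays with epidermis genes 4 were higher and 7 lower, with a median of −0.034. The smallest p belonged to Prkaa2, the AMPK subunit of muscle that marks Cry proteins for decay, at 10.18 ± 0.0646 in Skn-1 deficient and 10.07 ± 0.125 in wild-type muscle, a difference of 0.11 (adjusted p = 0.956, limma) that was 0.0083 without the 4 arrays with epidermis genes. Cry2, the partner of the Per proteins, averaged 8.03 ± 0.260 in Skn-1 deficient and 8.16 ± 0.359 in wild-type muscle, a difference of −0.13, or −0.27 without those arrays. Fbxw11, which helps degrade Per proteins, differed by 0.08, Csnk1d, a kinase of Per proteins, by −0.07, Usp2, a deubiquitinase with a clock rhythm, by 0.12, and Wee1, a cell cycle kinase under E-box control, by −0.08. Without the arrays with epidermis genes these 4 differed by −0.034, −0.23, 0.057 and −0.013, so that Fbxw11 turned its sign.

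Single probe sets of this list came closer. Over all probe sets 0 of its 27 ordinary ones were called and 4 had an unadjusted p under 0.05 (limma; 9.92% of all ordinary ones did), and 3 separated the genotypes without overlap (3.96% of all ordinary ones did), 1 of Rora and 2 of Prkaa2, all named here after their values were seen. One of the 6 probe sets of Rora, the activator that competes with Nr1d1 and Nr1d2, read 8.06, 8.11, 8.36, 8.10 and 8.15 in Skn-1 deficient arrays 1 to 5, against 7.38, 7.63, 7.19, 7.70 and 7.60 in wild-type arrays 1 to 5. The difference was 0.65 (95% interval 0.41 to 0.90, adjusted p = 0.0766, limma), while the other 5 Rora probe sets differed by −0.07 to 0.08. Without the 4 arrays with epidermis genes it was 0.56, and the other 5 lay between −0.24 and −0.023. Rora lies on chromosome 9, as Pou2f3 does, 614 places away in the gene order. Usp2 lies nearer, at 20 places, and none of the 10 clock genes is on that chromosome. A Prkaa2 probe set read 8.93, 8.57, 8.77, 8.69 and 8.62 in Skn-1 deficient arrays 1 to 5, against 8.38, 8.28, 8.05, 8.29 and 8.11 in wild-type arrays 1 to 5, a difference of 0.50 (adjusted p = 0.0936, limma). Another differed by 0.29 (adjusted p = 0.176, limma), while the brightest differed by 0.11. The fourth with an unadjusted p under 0.05, of Tef, a D-box activator related to Dbp, differed by 0.38 (adjusted p = 0.602, limma; 0.22 without the arrays with epidermis genes) and overlapped between genotypes. With only probe sets of SD above 0.01 in the fit, those of Rora (adjusted p = 0.00922, limma) and Prkaa2 (adjusted p = 0.0153, limma) passed, as did 2.30% of all probe sets in that fit.

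**Figure D5:**
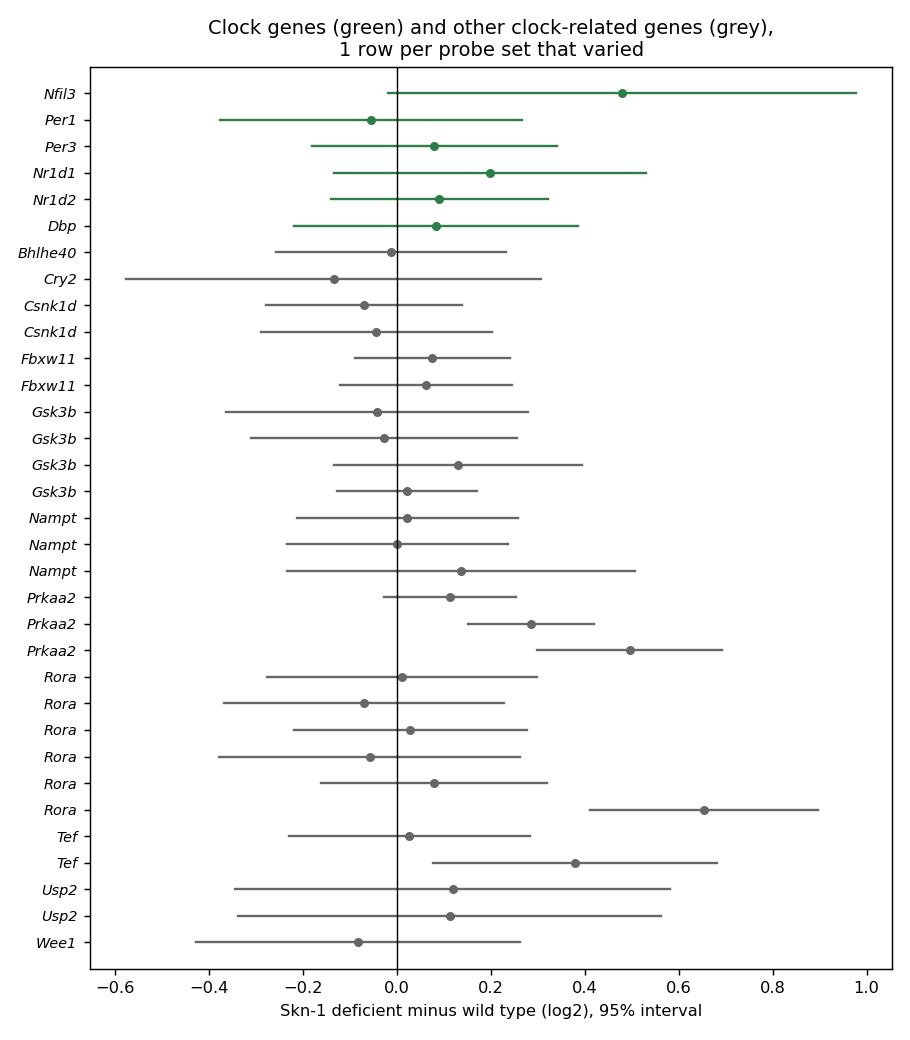
Difference of Skn-1 deficient minus wild-type means (log2) with its 95% interval, for the 6 ordinary probe sets of the clock genes (green) and the 27 of the other clock-related genes (grey), n = 5 arrays each. The intervals of all 6 clock genes cross 0; 1 probe set of Rora, at 0.65, 2 of Prkaa2, at 0.50 and 0.29, and 1 of Tef, at 0.38, stand clear of 0 while other probe sets of the same genes do not.

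Genes that hormones and cAMP are known to switch on had ordinary brightest probe sets in 12 of 12 cases. Of these, 11 were higher and 1 lower in Skn-1 deficient muscle, with a median difference of 0.19, 0 were called and 2 had an unadjusted p under 0.05 (limma). Over all 3410 genes with an ordinary brightest probe set, 47.0% were higher, the median was −0.0056 and 6.69% had an unadjusted p under 0.05. Without the 4 arrays with epidermis genes 8 of the 12 were higher and 4 lower, with a median of 0.15. Zbtb16, a glucocorticoid-induced transcription factor, averaged 9.59 ± 0.214 in Skn-1 deficient and 9.11 ± 0.353 in wild-type muscle, a difference of 0.48 (adjusted p = 0.853, limma) that was 0.19 without those arrays. In the fit over all probe sets its other ordinary ones differed by 0.31 and 0.15 (adjusted p = 0.840 and 0.954, limma). Zbtb16 also lies on chromosome 9, 153 places from Pou2f3. Nr4a1, an early nuclear receptor gene, averaged 10.07 ± 0.548 in Skn-1 deficient and 9.35 ± 0.300 in wild-type muscle, a difference of 0.72 (adjusted p = 0.853, limma). Crem, which encodes cAMP-responsive activators and repressors, differed by −0.20, and Nr4a3, a relative of Nr4a1, by 0.48.

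The early genes Egr1 and Fos differed by 1.0 and 0.99 (adjusted p = 0.935 and 0.941, limma) with a wide spread. Fos read 9.20, 10.75, 8.56, 8.25 and 9.50 in Skn-1 deficient arrays 1 to 5, against 7.61, 8.93, 8.49, 7.66 and 8.61 in wild-type arrays 1 to 5. Skn-1 deficient array 2, highest of all 10 in Nfil3, was also highest in Fos, in Egr1 (10.17), in Nr4a1 (10.73) and in Sgk1 (12.25), a kinase gene induced by glucocorticoids. It was the array where Dbp was lowest. Over 138 pairs of a varying clock gene with a varying gene of the 2 lists, none passed after adjustment.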

How the data were processed

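Values came from the series' deposited table, whose log2 scale is inferred from the range, since per the labels only the array type and RNA labelling (100 ng of total RNA, 3′ IVT) are known; no source used here gives software or normalization. Of 45101 rows 64 were array controls and left out. Of the rest, 34945 named 1 gene, 932 several and 9160 none; 34741 of the first matched RefSeq's gene table (GRCm38.p6).

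The test of genotype was limma's (version 3.58.1, R 4.3.3; lmFit, eBayes), adjusted by Benjamini-Hochberg at 0.05 over all probe sets or over genes (brightest probe set), checked on simulated data. The probe set shown per gene is its brightest with SD above 0.01. Clock genes and lists were chosen with earlier results of these data known. Named were all 10 clock genes, list genes past the threshold or otherwise the 6 with the smallest p among those with SD above 0.01, and 5 genes at each end of likeness. Probe sets of Rora and Prkaa2 were named after their values were seen. The number of arrays limits the precision. Alternatives covered normalization, filters, variance moderation, array weights, probe set choice, the replicate block and left-out arrays; pairs among varying genes and arrays with other tissue were added after seeing the data. The labels do not say whether replicate numbers pair the samples. Deviations of arrays with the same number correlated from −0.40 to 0.32, and values of both signs cannot settle it. Figures used matplotlib 3.10.9 with numpy 2.4.6 and pandas 2.3.3 (Python 3.11.15).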

Additional observations from a re-analysis of the deposited data

Results flagged for a closer look

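For 19 items, 38 groups of 5 arrays were searched for a single array far from the others. The items were named genes and the arm difference, which is built from the varying clock genes. Chance marks about 1 group in 20, and 3 were found. Dbp in Skn-1 deficient array 2 read 6.70, below 7.11 to 7.26 in the other Skn-1 deficient arrays, and the difference between genotypes without it was 0.18. Csnk1d in the same array read 9.05, below 9.27 to 9.33 in the others. Nr1d1 in wild-type array 1 read 7.23, above 6.78 to 6.89 in the other wild-type arrays, and the difference without it was 0.27; epidermis genes averaged 6.75 on that array, and their part in the value was not tested.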

How the results depend on the processing

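None of the 24 clock probe sets was called under 19 alternatives and none of the 10 clock genes under 21 (limma). The differences of Nfil3 (0.32 to 0.59), Nr1d1 (0.12 to 0.30) and Dbp (0.03 to 0.18) kept their sign under 21 alternatives. Variance moderation, filters and the replicate block cannot change these differences, so only the rest could test the sign. Probe set choice cannot change those of Nfil3 and Nr1d1 either, which have 1 probe set each. Per1 ran from −0.143 to 0.0426 with 1 array left out and turned positive only without wild-type array 2, and Per3 and Nr1d2 turned to −0.0302 and −0.0280 without the 4 arrays with epidermis genes; the cause was not tested. The arm difference stayed positive under 17 alternatives. It was 0.21 to 0.54 with 1 array left out, and 0.76 in units of SD with each gene divided by its SD. The mean of all ordinary probe sets repeated the main value, since each gene had 1. The arm difference had no value without Nfil3, since no other gene of the activator arm had an ordinary probe set.

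Counts over all features moved more. Called probe sets numbered 86, and 43 after quantile normalization, 143 with SD above 0.01 only, 31 to 57 with 1 array left out, 16 without the 2 arrays with lymphocyte genes and 0 without the 4 with epidermis genes (2912 with an unadjusted p under 0.05, limma). Called genes numbered 5, and 65 with SD above 0.01 only, 61 by the most variable probe set, 29 by the mean of all, 2 to 5 with 1 array left out, 1 without the arrays with lymphocyte genes and 3 without those with epidermis genes. With the replicate number as a block, 5 probe sets and 3 genes were called, and no clock gene was called in that fit. Whether the numbers pair the samples is not known.

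Among other clock probe sets, 1 was called with means at or above the median only (Rora), 2 with SD above 0.01 only (Rora, Prkaa2) and 1 without wild-type array 4 (Prkaa2). Differences of Arntl, Clock, Npas2 and Per2 were not carried through, since they have no readable size. No pseudocount applied to logged values.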

Other observations

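Across the 138 pairs of a clock gene with a gene of the other lists, compared as deviations from the genotype mean over 10 arrays, Dbp ran opposite to Sgk1 (r = −0.84) and Fos (r = −0.79). Nfil3 ran with Sgk1 (r = 0.81) and Nr4a1 (r = 0.78), and Per1 with Zbtb16 (r = 0.82) and Nr4a1 (r = 0.80). Per3 ran with Bhlhe40 (r = 0.82), a repressor at E-boxes, and Nr1d1 opposite to Tsc22d3 (r = −0.81), a glucocorticoid-induced gene. All of these had an adjusted permutation p of 0.0975. Without the 2 arrays farthest from the median of the clock gene, Dbp had r = −0.54 with Sgk1 and −0.57 with Fos, Nfil3 had 0.44 with Sgk1 and 0.53 with Nr4a1, Per1 had 0.65 with Zbtb16 and 0.72 with Nr4a1, Per3 with Bhlhe40 had 0.83 and Nr1d1 with Tsc22d3 −0.87. Without the 4 arrays with epidermis genes, Nr1d1 with Tsc22d3 had r = −0.37 and Per1 with Nr4a1 r = 0.78. These pairs were chosen after their values were seen.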
